A study of Mus musculus with 6 samples.

Results

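Mitosis genes were described in E0771-HML2 cells and in the parental E0771 cells from which they were derived. The set is a list of 38 genes with established roles in entry into mitosis, chromosome segregation and cytokinesis. A member was measured by the probe sets that the array annotation assigns to its symbol alone, and its brightest probe set over the 6 arrays, by mean log2(signal + 50), represented it. This gave 37 members among the 18193 genes with such a probe set. The cyclin gene Ccnb1 was not analysed here. All 37 members passed the filter on low signals, a mean signal of at least 100, which left 9361 genes to test.

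E0771-HML2 is a second-generation population with high metastatic potential: cells placed in mammary fat pads were recovered from the lungs, and the passage was repeated. The unselected parental line, E0771, comes from a C57BL/6 mammary tumour of the mouse. HML2 and parental cells were each represented by biological replicates 1 to 3, cultured for 3 days in DMEM containing 10% FBS, with an array for each replicate. Since no separate animals or derivations are named for the HML2 replicates, p-values cover the spread between these samples, which may be technical. All values describe cells growing in dishes and not tumours or metastases.

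Signals were MAS5 intensities, a linear brightness per probe set, scaled to a trimmed mean of 500 on all 6 arrays. Signals of 100 or more were reached by 39.7% to 41.6% of the probe sets on an array, and bacterial tryptophan control probe sets read 1.97 to 36.2. Mean signals of the members were 234 to 13027 with a median of 2786, so that all stood clear of those controls. Each group had only 3 arrays, and what limits the precision was not tested. The log2 ratio of 3' to 5' signal of the beta-actin control, a gauge of RNA integrity, was 0.45 to 0.47 on HML2 arrays and 0.50 to 0.61 on parental arrays (exact two-sided permutation test, p = 0.1, the smallest that 3 against 3 arrays allow), and its part in the results was not tested. For Gapdh the ratio was -0.38 to -0.29 over all 6 arrays (exact permutation test, p = 0.7). Of the mammary epithelial markers, Krt8 had signals of 3592 to 4875 in HML2 and 1034 to 1154 in parental cells, whereas Krt18, Krt19, Epcam and Cdh1 were at 157 or lower on every array, and Krt18, Krt19 and Cdh1 did not pass the filter. Summed signals of 6 leukocyte markers were 211 to 444 in HML2 and 390.0 to 421 in parental cells, and those of 4 endothelial markers were 109 to 158 in HML2 and 71.2 to 161 in parental cells. For 5 lung epithelial markers the sums were 141 to 255 in HML2 and 149.6 to 248 in parental cells, and for 4 fibroblast markers, nearly all of it Pdgfra, they were 790.1 to 1057 in HML2 and 1512 to 2596 in parental cells.

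Mitosis is driven by cyclin-dependent kinase 1 bound to A- and B-type cyclins, which is switched on by CDC25 phosphatases and switched off when the anaphase-promoting complex marks the cyclins for destruction. Kinetochores attach chromosomes to spindle microtubules, the spindle checkpoint holds back anaphase until all are attached, and the central spindle then directs cleavage of the cell. Most of these genes are transcribed late in the cell cycle, so in a growing culture their messenger levels are commonly read as a mark of proliferation. In RNA from whole cultures, fewer cells in mitosis and less of a messenger per cell cannot be told apart.

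Most mitosis genes were not called different between the metastasis-selected and the parental population. Of the 37 members, 5 were higher in HML2 cells, namely Ect2, Cenpe, Mad2l1, Cenpa and Bub1, and 1, Nuf2, was lower (limma, Benjamini-Hochberg adjusted p below 0.05 over all genes tested). Among all genes tested 27.2% were called, 12.3% higher and 14.9% lower, so that the 13.5% of members called higher is close to the background and the 2.70% called lower lies below it. The median log2 difference, HML2 minus parental, was 0.12 over the members and -0.02 over all genes tested. Differences of members ran from -0.73 to 0.78, and none of them reached 2-fold, a size reached by 8.71% of all genes tested. The HML2 signals lay entirely on 1 side of the parental signals for 9 members, or 24.3%, against 44.4% of all genes tested. Such counts, and calls, depend on the spread between replicates, which was wider for the members. The median SD of log2 values within groups was 0.26 over the members and 0.20 over all genes tested. A member without a call is therefore not shown to be unchanged.

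Arrays of the same replicate number deviated together from their group means, with correlations across genes of 0.45, 0.34 and 0.24 for replicates 1, 2 and 3. However, HML2 replicate 3 correlated as closely with parental replicate 2 (0.24), so pairing by number is uncertain there. With the number as a block in the model more members passed. There were then 10 members higher and 2 lower, that is 27.0% and 5.41%, against 17.8% and 19.6% of all genes tested. The 6 members called without the block were also called with it. The others called with it were Kif23, Tpx2, Cdca8, Aurka and Cdc20, all higher, and Ccnb2, which was lower. The estimates are the same in both models, and the median standard error of a member fell to 0.11 with the block, against 0.17 without it. Without replicate 1 of both groups, an alternative chosen after seeing the data, 13 members were higher and 2 lower, against 18.1% and 19.7% of all genes tested. Leaving out single arrays gave 2 to 15 higher members: 15 without HML2 replicate 1, and 2 without HML2 replicate 2, HML2 replicate 3, parental replicate 1 or parental replicate 3. Of all genes tested, 16.8% were called higher without HML2 replicate 1. In the fits with 2 higher members the shares were 9.06%, 7.64%, 8.33% and 6.30%, in the order given.

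**Figure D1:**
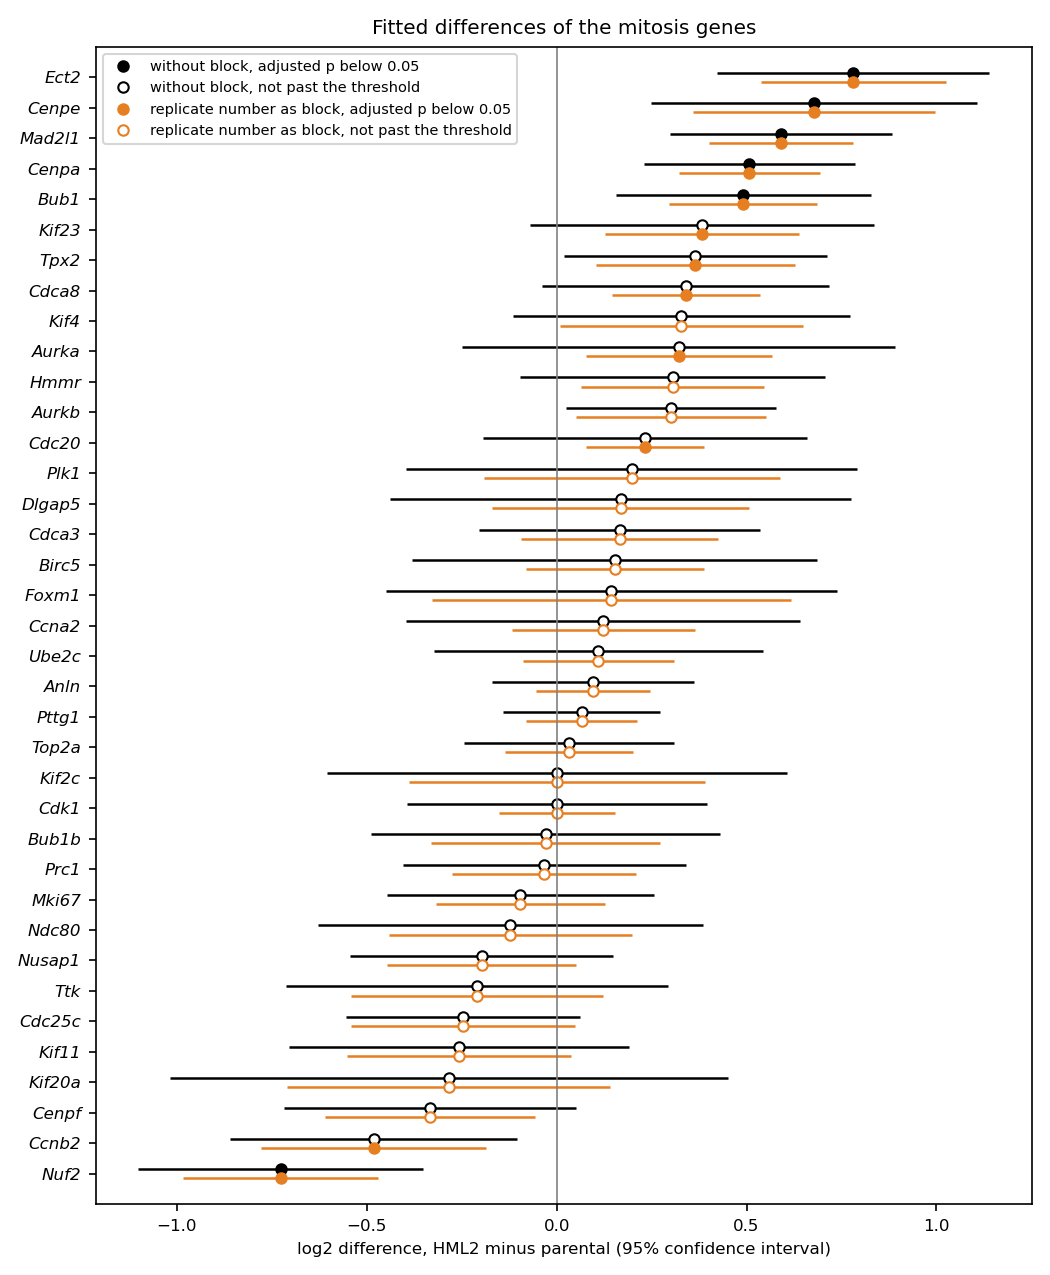
Fitted log2 differences, HML2 minus parental, of the 37 mitosis genes with 95% confidence intervals, from the model without the replicate number (black) and with it as a block (orange). Filled points passed an adjusted p below 0.05: 6 members without the block and 12 with it, and all points lie between -0.73 and 0.78.

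Among the engine of mitotic entry, none of the 5 genes measured passed the test in limma without the block, beside 27.2% of all genes tested. Only Ccnb2 of these 5 had an unadjusted p below 0.05. Cdk1, the catalytic subunit of the mitotic kinase, had signals of 8511, 12539 and 11143 in HML2 cells, against 8807, 12687 and 10629.6 in parental cells. The groups covered the same range, and the log2 difference was 0.00 with a 95% interval of -0.40 to 0.40, narrowed to -0.15 to 0.15 with the block. Ccna2, which encodes cyclin A2, had 4292, 7858 and 7203 in HML2 and 4759, 6679.6 and 5911 in parental cells, again with overlapping groups (0.12, adjusted p = 0.73). Ccnb2, which encodes cyclin B2, had 2011, 3072 and 2928 in HML2 cells and 3567, 3647 and 3854 in parental cells. Every HML2 signal of Ccnb2 lay below every parental signal, and the log2 difference of -0.48 ± 0.17 (SE) missed the threshold at an adjusted p of 0.062 and passed it with the block (adjusted p = 0.021). Cdc25c, a phosphatase that activates the kinase, had 639, 727 and 741 in HML2 and 819, 918 and 792 in parental cells. These groups did not overlap either, but the difference of -0.25 did not pass (adjusted p = 0.21; 0.16 with the block). Foxm1, a transcription factor that promotes expression of many late cell-cycle genes, was the dimmest member, with 149.7, 367 and 246 in HML2 and 190.4, 221 and 231 in parental cells and a 95% interval of -0.45 to 0.74.

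Of the mitotic kinases, Plk1, which acts at centrosomes and kinetochores, had 1089, 2114 and 2069 in HML2 cells, against 1288, 1848 and 1314 in parental cells (0.20, adjusted p = 0.61). Its HML2 replicate 1 was the lowest of the 6 signals and the other HML2 arrays were the highest. Aurka, the kinase of spindle poles, had 2019, 3675 and 3411 in HML2 and 1782, 2847 and 2526 in parental cells. Within each replicate number the HML2 signal was above the parental signal, and the difference of 0.32 was called with the block (adjusted p = 0.046) but not without it (0.37). Aurkb, the kinase of the chromosomal passenger complex at centromeres and the midzone, had 1855, 2120.0 and 2137 in HML2 and 1549, 1734 and 1647 in parental cells. All HML2 signals exceeded all parental signals by a log2 difference of 0.30, which was not called (adjusted p = 0.10; 0.061 with the block). Cdca8, which encodes its partner borealin, had 5422, 7471 and 7415 in HML2 and 4449, 6170.5 and 5363 in parental cells, a difference of 0.34 that was called with the block (adjusted p = 0.016) and not without it (0.16). Birc5, which encodes the partner survivin, differed by 0.15 and was not called in either model.

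Spindle checkpoint genes, 4 in number, held 2 of the higher members, beside 12.3% called higher among all genes tested. Mad2l1, which encodes the checkpoint protein that sequesters the APC/C activator CDC20, had signals of 6983, 8607 and 9080.2 in HML2 cells, against 5027, 5311 and 5932 in parental cells. The groups did not overlap, and Mad2l1 averaged 8223 ± 1100.2 in HML2 and 5424 ± 463 in parental cells (SD, n = 3 each), a log2 difference of 0.59 ± 0.13 (SE, adjusted p = 0.011). Bub1, a kinase that recruits checkpoint proteins to kinetochores, had 6279, 7533 and 7441 in HML2 cells and 4079, 5566 and 5536 in parental cells. Its difference of 0.49 ± 0.15 was called (adjusted p = 0.039) with groups that did not overlap, but a second, dimmer probe set of Bub1 gave -0.49 without a call (adjusted p = 0.15). The call of Bub1 was lost on leaving out any array other than HML2 replicate 1, with adjusted p-values up to 0.12. On all 6 arrays it was also lost without the signal filter, with quantile normalization, without the intensity trend and with the mean of all probe sets, so that Bub1 was called in 9 of 19 settings. Bub1b, which encodes BUBR1 of the mitotic checkpoint complex, had 1963, 3210.5 and 3176 in HML2 and 2488, 3212 and 2666 in parental cells (-0.03, adjusted p = 0.93). Ttk, the kinase at the head of the checkpoint, had 693, 1254 and 1176 in HML2 and 1031, 1309 and 1200.1 in parental cells (-0.21, adjusted p = 0.52). Neither separated the groups, and whether they differ from Mad2l1 or Bub1 in their response was not tested.

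Genes of the anaphase-promoting complex pathway were among the brightest members. None of the 4 passed the limma test without the block, beside 27.2% of all genes tested, or had an unadjusted p below 0.05. Cdc20, the activator that the checkpoint restrains, had 10729.7, 16453 and 15143 in HML2 cells, against 9470.3, 12802 and 13563 in parental cells. The HML2 signal was above the parental signal of the same number each time, and the difference of 0.23 was called with the block (adjusted p = 0.029; 0.39 without). Ube2c, the ubiquitin-conjugating enzyme of the complex (0.11), Cdca3, which acts in degradation of the WEE1 kinase (0.17), and Pttg1, which encodes securin (0.07), were called in neither model. Pttg1 had 11870.0, 11401 and 10552 in HML2 and 11112, 10804 and 10371 in parental cells. It varied least between replicates, and its 95% interval was -0.14 to 0.27.

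Kinetochore and centromere genes went both ways. Cenpa, the histone H3 variant that marks centromeres, had 7519, 8800.4 and 8562 in HML2 cells, against 5293, 6657 and 5552 in parental cells. Cenpe, a kinesin that moves chromosomes to the spindle equator, had 1164, 1690.2 and 1818 in HML2 and 838, 1085 and 909 in parental cells. Neither gene's groups overlapped, and the log2 differences were 0.51 ± 0.12 for Cenpa (adjusted p = 0.016) and 0.68 ± 0.19 for Cenpe (adjusted p = 0.030). A second probe set of Cenpe gave 0.71 and was called as well, and a second, dimmer probe set of Cenpa gave 0.51 without a call (adjusted p = 0.078). Both calls were lost without HML2 replicate 2, HML2 replicate 3, parental replicate 1 or parental replicate 3, with differences of 0.44 to 0.66 in those fits and adjusted p-values of 0.058 to 0.11.

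Nuf2, a subunit of the NDC80 complex that binds microtubules at the kinetochore, was the only member called lower without the block. Its signals were 1160.3, 1272 and 1576 in HML2 cells, against 1874, 2306 and 2552 in parental cells. Every HML2 array was below every parental array, and Nuf2 averaged 1336 ± 215 in HML2 and 2244 ± 343 in parental cells (SD, n = 3 each), a difference of -0.73 ± 0.16 (adjusted p = 0.013). Without parental replicate 3 it was -0.63 and not called (adjusted p = 0.067). Ndc80, whose product pairs with that of Nuf2, had 1075, 1815 and 1965 in HML2 and 1491, 1772 and 1889 in parental cells (-0.12, adjusted p = 0.72). The remaining subunit genes of the complex, named after their values were seen, had differences of -0.42 for Spc24 (adjusted p = 0.26; 0.026 with the block) and -0.34 for Spc25 (0.16; 0.076 with the block). Cenpf, a large protein of the outer kinetochore, had 1542, 2145 and 2369 in HML2 and 2319.7, 2537 and 2707 in parental cells (-0.33, adjusted p = 0.18; 0.061 with the block).

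**Figure D2:**
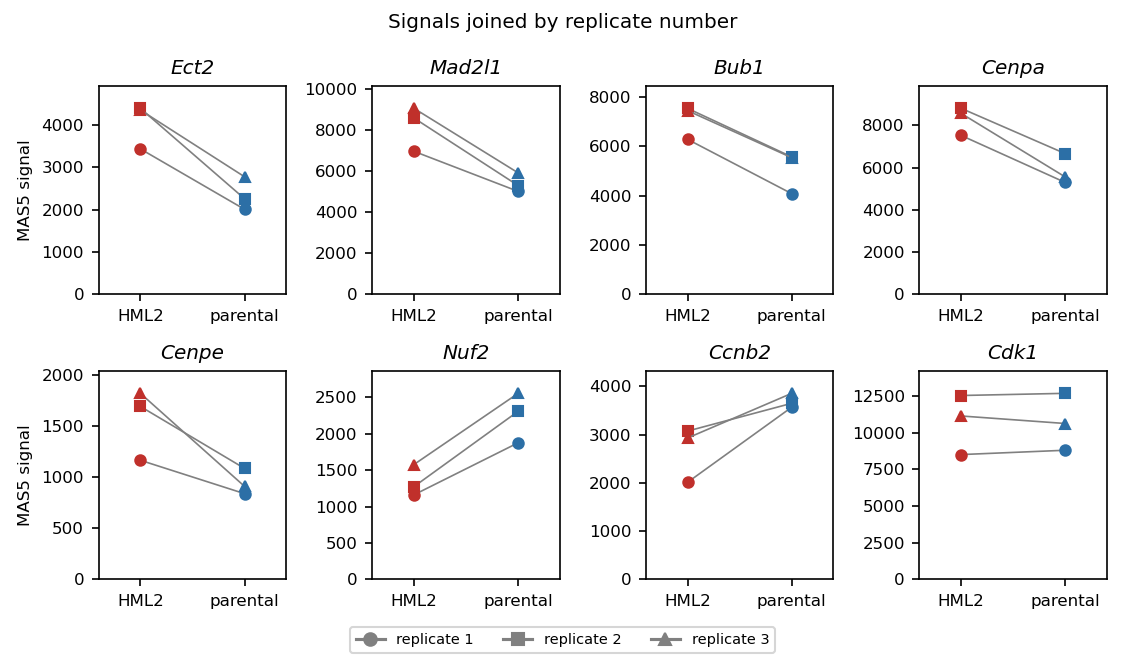
MAS5 signals (linear axes from 0) of 8 mitosis genes on the HML2 and parental arrays, with grey lines joining arrays of the same replicate number. The HML2 points lie above their parental partners for Ect2, Mad2l1, Bub1, Cenpa and Cenpe and below them for Nuf2 and Ccnb2, and the lines of Cdk1 run nearly level.

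Apart from Cenpe, described with the kinetochore genes, none of the 5 kinesin genes was called by limma without the block or had an unadjusted p below 0.05. Calls without the block covered 27.2% of all genes tested. Kif23, the motor subunit of centralspindlin, had 2041, 3239 and 3107 in HML2 cells, against 1755, 2408 and 2160.4 in parental cells. HML2 was higher within each number, and the difference of 0.38 was called with the block (adjusted p = 0.029; 0.19 without). Kif20a, needed for cytokinesis, spread most between replicates, with 1087, 2837 and 2558 in HML2 and 2042, 2779.8 and 2559 in parental cells and a 95% interval of -1.02 to 0.45. Kif2c, a microtubule depolymerase and the brightest of them, had 1461, 2989.8 and 3128 in HML2 and 2126, 2536 and 2536 in parental cells, with a difference of 0.00. Its parental signals lay between HML2 replicate 1 and the other HML2 arrays. Kif11, the motor that pushes spindle poles apart (-0.26), and Kif4, a chromosome-bound motor (0.33), were called in neither model.

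Estimated differences of spindle assembly factors and chromosome proteins ran from -0.20 to 0.36. Tpx2, which activates Aurora A on microtubules, had 2029, 2754 and 2717 in HML2 cells, against 1761, 2109 and 1883 in parental cells. Only HML2 replicate 1 fell within the parental range, and the difference of 0.36 was called with the block (adjusted p = 0.037; 0.11 without), while a second, dimmer probe set of Tpx2 gave -0.32 without a call. Nusap1, which encodes a spindle-binding protein and was the brightest of these factors, had 2632, 3078 and 3076 in HML2 and 2833, 3284 and 4066 in parental cells, with overlapping groups (-0.20, adjusted p = 0.37). Hmmr (0.31), Dlgap5 (0.17) and Prc1 (-0.03), which encode further microtubule-binding proteins of the spindle, were not called in either model. The proliferation marker Mki67, which encodes Ki-67, had 2557, 3479.5 and 3122 in HML2 and 2767, 3519 and 3489 in parental cells. Top2a, the topoisomerase that untangles sister chromatids, had 8932, 10936 and 9229 in HML2 and 8345, 10293 and 9812 in parental cells. Signals of both genes overlapped between the groups, with 95% intervals of -0.45 to 0.26 for Mki67 and -0.24 to 0.31 for Top2a. A dimmer probe set of Top2a gave -0.65 without a call (adjusted p = 0.15).

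The largest difference of any member was in cytokinesis. Ect2, the exchange factor that activates the GTPase RhoA at the cleavage furrow, had signals of 3433, 4389.7 and 4349.9 in HML2 cells, against 2007, 2257 and 2775 in parental cells. All HML2 signals exceeded all parental signals, and Ect2 averaged 4058 ± 541 in HML2 and 2346 ± 392 in parental cells (SD, n = 3 each), 1.73 times as much. The log2 difference was 0.78 ± 0.16 (adjusted p = 0.0078). Ect2 and Mad2l1 passed the test in all 19 settings, with adjusted p-values up to 0.035 for Ect2 and 0.047 for Mad2l1. Anln, a scaffold protein of the furrow, had 9707, 11427 and 11472 in HML2 and 8965, 11022 and 10553 in parental cells (0.10, adjusted p = 0.58), and a dimmer probe set of it gave -0.78 (adjusted p = 0.061). Other genes of this step came from a list of cytokinesis genes outside the set, of which 3 of 11 tested were higher and 2 lower. The shares of all genes tested were 12.3% higher and 14.9% lower. The largest difference in that list was a decrease, that of Rab11fip3 (-0.83, adjusted p = 0.012), whose second probe set gave 0.27 without a call (adjusted p = 0.45). Racgap1, which encodes the partner of Kif23 in centralspindlin that recruits ECT2, had 3792, 4134 and 3726 in HML2 and 2650.3, 3036 and 2780.3 in parental cells (0.45, adjusted p = 0.018). Rhoa had 7813, 8620.2 and 9157 in HML2 and 5839.9, 6065 and 7333 in parental cells (0.41, adjusted p = 0.035). The groups did not overlap for these genes, but a second probe set of Racgap1 gave -0.42 without a call (adjusted p = 0.18). The call of Racgap1 was lost without HML2 replicate 2 or 3 or parental replicate 1 or 3, and that of Rhoa without any array but HML2 replicate 1 and parental replicate 3.

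**Figure D3:**
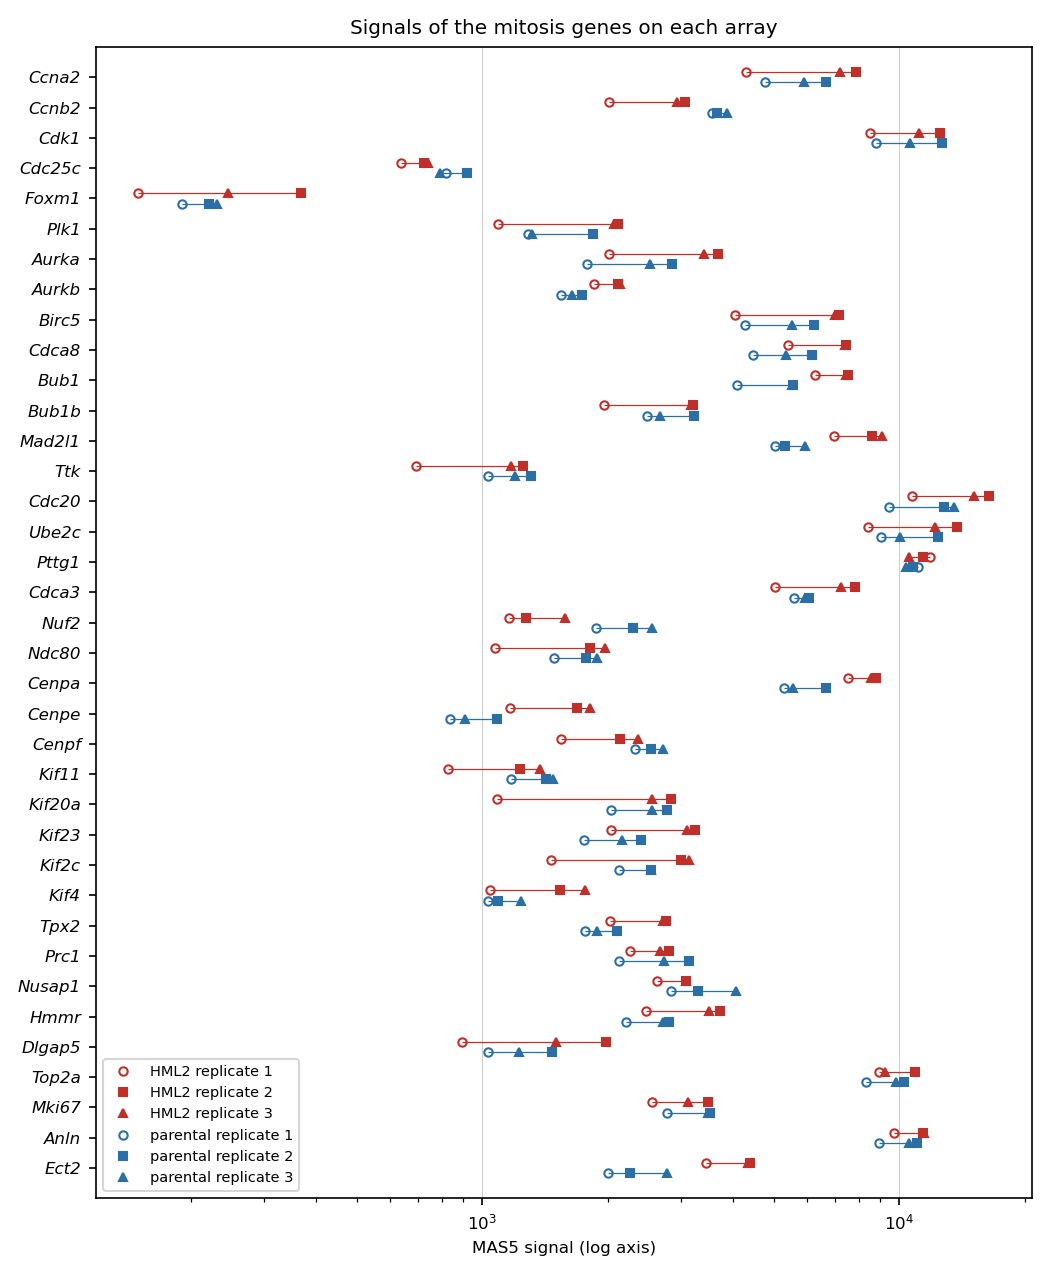
MAS5 signals (log axis) of the 37 mitosis genes on each array, with HML2 in red above parental in blue, open circles for replicate 1, and a line from the lowest to the highest signal of a group. In 35 genes the open circle is at the low end of both lines, with Cdc25c and Pttg1 as the exceptions.

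Mitosis genes varied together between replicates of the same population. Replicate 1 had the lowest signal of its group for 36 members in HML2 cells and for 35 members in parental cells. It was lowest in both groups for 35 of 37 members, or 94.6%, against 21.1% of all genes tested. The log2 value on HML2 replicate 1 minus the mean of HML2 replicates 2 and 3 had a median of -0.55 over the members and 0.01 over all genes tested. For parental replicate 1 the medians were -0.29 over the members and 0.02 over all genes tested. The shift ranged from -1.27 (Kif20a) to 0.11 (Pttg1) in HML2 cells, and from -0.58 (Aurka) to 0.07 (Pttg1) in parental cells. The members' median shift was larger than their median difference between the populations in size: relative to the parental mean, the median member stood at -0.30, 0.40 and 0.28 on HML2 replicates 1, 2 and 3 and at -0.19, 0.12 and 0.06 on parental replicates 1, 2 and 3. Compared within a number, the median member differed by -0.08 for replicate 1, 0.20 for replicate 2 and 0.28 for replicate 3. The medians over all genes tested were -0.04, 0.01 and -0.02. In the same order, 17, 26 and 26 of the 37 members were higher in HML2 cells. In all 3 numbers the same sign was found for 23 members, 15 higher and 8 lower, which is 62.2% against 65.5% of all genes tested. By direction, 31.4% of all genes tested were higher in all 3 numbers and 34.0% were lower.

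Replicate 1 was lowest in both groups for 21.1% of all genes tested, and other cell-cycle lists exceeded that share to different degrees. DNA replication genes were lowest on it in both groups for 30 of 45 genes (66.7%), with a median shift of -0.34 in HML2 and -0.24 in parental cells, and the other kinetochore and centromere genes for 26 of 35 (74.3%). For subunits and regulators of the anaphase-promoting complex the count was 8 of 19 (42.1%). For centrosome duplication genes it was 3 of 11 (27.3%), near the share of all genes. The count was 9 of 21 (42.9%) for condensin and cohesin genes and 11 of 23 (47.8%) for other CDK1 regulators and mitotic kinases. It was 14 of 25 (56%) for other motors and spindle factors and 4 of 11 (36.4%) for other cytokinesis genes. Among regulators of late cell-cycle transcription it was 9 of 21, with a median shift of -0.23 in HML2 and -0.08 in parental cells. Cdkn1a of that list, which encodes the CDK inhibitor p21, was instead highest on replicate 1. Its signals were 1341, 399 and 412 in HML2 and 235, 217 and 182 in parental cells. The labels do not say what the replicate number stands for, and the part of Cdkn1a in these shifts was not tested.

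**Figure D4:**
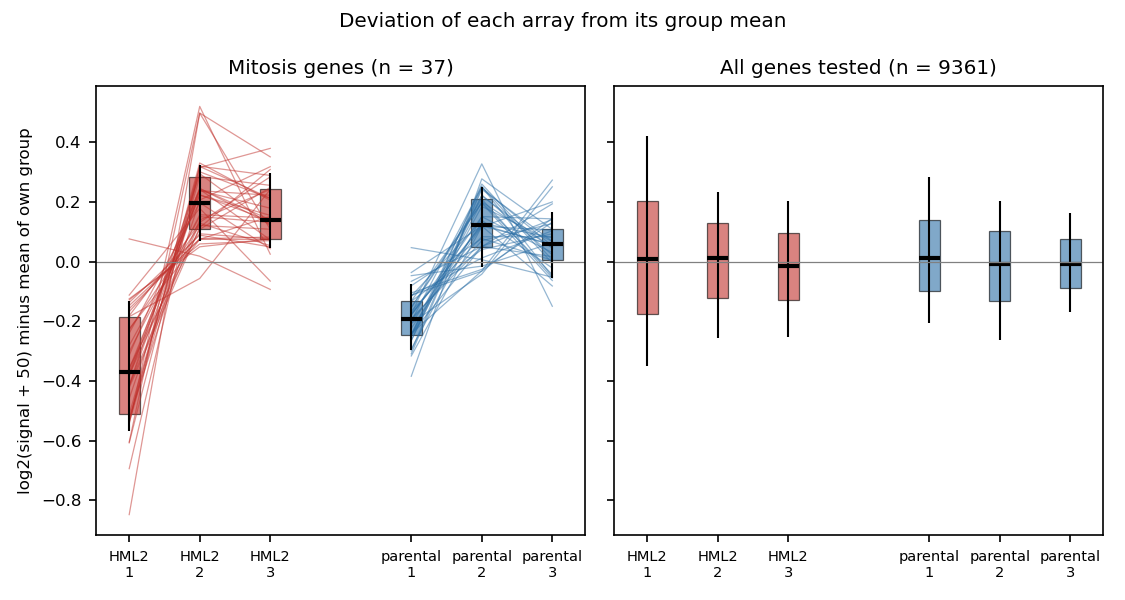
Deviation of log2(signal + 50) on each array from the mean of its group, for the 37 mitosis genes (left, with a thin line per gene) and for the 9361 genes tested (right). Boxes span the quartiles with the median as a bar, and whiskers the 10th to 90th percentile; the median member lies at -0.37 on HML2 replicate 1 and -0.19 on parental replicate 1, while medians of all genes stay near 0.

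Promoters of the listed genes were searched for sequence elements linked to late cell-cycle transcription. The cell cycle genes homology region (CHR), commonly written TTTGAA, is bound by the MuvB core of the DREAM complex, and CCAAT boxes are bound by NF-Y; in many mitosis genes the elements stand close to each other near the gene start. RefSeq promoter windows of GRCm38.p6, from 250 bases before to 50 bases after an annotated start, were available for 31 of the 38 listed genes, with 2 starts each for Ect2 and Prc1. TTTGAA on either strand (its reverse complement reads TTCAAA) was found in 23 of 31 genes, or 74.2%, against 20.2% of all 27025 genes in the table and 14.0% of those that were also tested here. CCAAT on either strand (ATTGG) was found in 23 genes, or 74.2%, against 41.1% of all genes. Both were found in 20 genes, or 64.5%, against 7.97% of all genes, and the motifs shared bases in 1 member promoter. In 21 genes a TTTGAA match began within 50 bases of the start. The variant TTTAAA, which is its own reverse complement, was in 9 genes (29.0%, against 14.9%). These are matches of letters and no test of binding was made. Their relation to the shifts between replicates or to the differences between the populations was not tested.

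The 6 members called without the block are shown with Ccnb2, Cdc20 and Cdk1, from 125 bases before to 25 bases from the annotated start, read 5′ to 3′ on the gene's strand. Capitals mark TTTGAA and CCAAT matches on either strand. Ect2, Cenpa, Ccnb2, Cdc20 and Cdk1 hold both motifs in this stretch, Bub1 and Cenpe hold CCAAT matches, and Mad2l1 and Nuf2 hold neither motif. Of the starts of Ect2, the one with the lower coordinate is shown.
Ect2 (chr3:27153830-27153979, minus strand): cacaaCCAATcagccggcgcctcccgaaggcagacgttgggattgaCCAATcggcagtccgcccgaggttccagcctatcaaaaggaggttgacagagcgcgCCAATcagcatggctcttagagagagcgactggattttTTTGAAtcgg
Mad2l1 (chr6:66535096-66535245, plus strand): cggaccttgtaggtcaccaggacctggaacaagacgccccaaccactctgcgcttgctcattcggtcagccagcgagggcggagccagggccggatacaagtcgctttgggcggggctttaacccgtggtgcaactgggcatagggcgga
Bub1 (chr2:127831835-127831984, minus strand): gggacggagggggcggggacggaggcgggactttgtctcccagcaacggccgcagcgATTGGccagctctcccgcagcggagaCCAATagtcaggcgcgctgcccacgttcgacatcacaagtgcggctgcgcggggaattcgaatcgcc
Cenpa (chr5:30666761-30666910, plus strand): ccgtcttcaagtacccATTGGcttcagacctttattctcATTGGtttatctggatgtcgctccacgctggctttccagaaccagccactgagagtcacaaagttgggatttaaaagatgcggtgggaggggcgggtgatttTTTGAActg
Cenpe (chr3:135212438-135212587, plus strand): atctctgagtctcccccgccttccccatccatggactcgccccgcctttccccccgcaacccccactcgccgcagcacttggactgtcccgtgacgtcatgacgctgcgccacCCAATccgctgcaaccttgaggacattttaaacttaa
Nuf2 (chr1:169531440-169531589, minus strand): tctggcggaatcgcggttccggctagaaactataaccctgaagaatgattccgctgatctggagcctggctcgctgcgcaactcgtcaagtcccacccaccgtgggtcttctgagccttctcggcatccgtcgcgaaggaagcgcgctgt
Ccnb2 (chr9:70421530-70421679, minus strand): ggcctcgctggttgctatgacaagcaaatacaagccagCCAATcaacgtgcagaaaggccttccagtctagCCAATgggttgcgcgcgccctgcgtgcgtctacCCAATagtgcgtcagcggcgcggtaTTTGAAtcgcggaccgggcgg
Cdc20 (chr4:118437319-118437468, minus strand): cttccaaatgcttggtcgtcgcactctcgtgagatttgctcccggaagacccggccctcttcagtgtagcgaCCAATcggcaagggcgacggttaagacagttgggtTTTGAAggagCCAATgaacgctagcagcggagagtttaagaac
Cdk1 (chr10:69352888-69353037, minus strand): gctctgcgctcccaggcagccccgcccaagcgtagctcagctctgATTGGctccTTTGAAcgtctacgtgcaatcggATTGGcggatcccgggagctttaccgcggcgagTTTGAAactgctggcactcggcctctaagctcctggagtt
Members called higher include stretches with both marked motifs, with CCAAT alone of the marked motifs, and with neither. The variant TTTAAA is not marked, and it begins at base 14 from the start in Cenpe and at base -17 in Cenpa. Among members that were not called, Pttg1, Nusap1 and Birc5 had no match of TTTGAA or CCAAT in the full window.

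**Figure D5:**
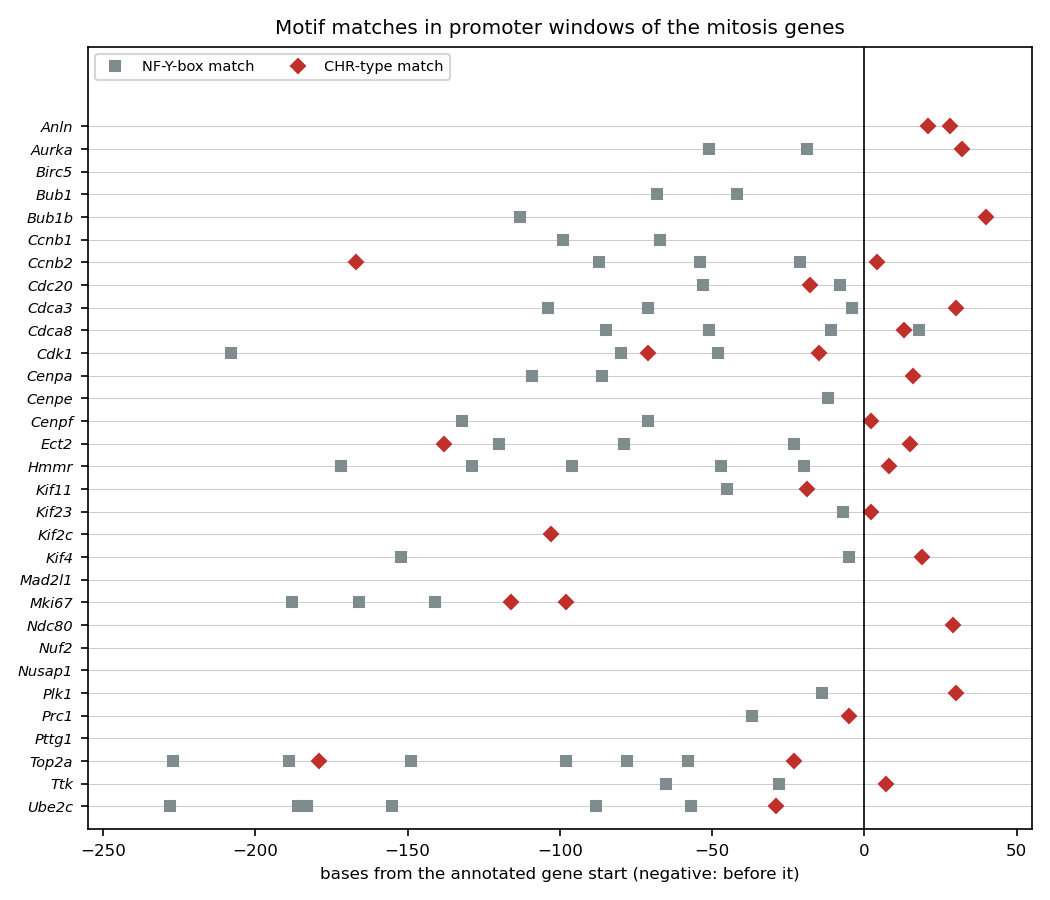
Matches of the CHR motif (red diamonds) and of the NF-Y box (grey squares), on either strand, by distance in bases from the annotated start, in the promoter windows of 31 listed genes (for Ect2 and Prc1, the start with the lower coordinate). In most windows with both, the grey squares lie before the start and a red diamond lies close to it.

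Mitosis genes outside the set were counted in lists of related functions. Of all genes tested 12.3% were called higher and 14.9% lower, and 17.8% and 19.6% with the block. Of 35 other kinetochore and centromere genes tested, 3 were higher and 1 lower, with a median of 0.01, and with the block 6 were higher and 5 lower. Dsn1, a subunit of the MIS12 complex (0.67), Mad2l2, which encodes a HORMA-domain relative of MAD2 (0.66), and Ska1, a kinetochore protein (0.63), were higher, and Cenpp, of the inner kinetochore, was lower (-0.64). Of 21 condensin and cohesin genes, 3 were higher and 1 lower (median 0.06), and 5 and 1 with the block. These were the cohesin acetyltransferase gene Esco1 (0.91), the cohesin release factor gene Wapl (0.71) and the condensin gene Ncapg (0.46), and, lower, the cohesin loader gene Mau2 (-0.83). Adjusted p-values of these genes and the kinetochore genes above ran from 0.0041 (Esco1) to 0.038 (Mau2). The calls of Esco1 and Wapl held without any single array, but a second probe set gave 0.42 for Esco1 (adjusted p = 0.097) and 0.02 for Wapl (adjusted p = 0.95), and 0.39 for Ncapg (adjusted p = 0.19). Those of Dsn1, Ska1 and Ncapg were lost without parental replicate 1 or 2, HML2 replicate 3 or, for Ska1 and Ncapg, HML2 replicate 2. That of Mau2 was lost without HML2 replicate 3 or any parental array, that of Mad2l2 without parental replicate 2 or 3, and that of Cenpp without parental replicate 3. The list of anaphase-promoting complex subunits and regulators had 1 lower gene of 19, Anapc2 (-0.39, adjusted p = 0.049), and 0 higher by limma, with 2 higher at an unadjusted p below 0.05, and 1 higher and 2 lower with the block. The call of Anapc2 was lost without any array but HML2 replicate 1, and Ube2s, the brightest gene of that list, differed by 0.03.

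Regulators of CDK1 and other mitotic kinases had 2 lower genes of 23 and 0 higher by limma, with 1 higher at an unadjusted p below 0.05. With the block there were 2 higher and 3 lower. Of all genes tested 14.9% were called lower and 12.3% higher, and 19.6% and 17.8% with the block. Wee1, the kinase that holds CDK1 inactive, had 906, 1176 and 952 in HML2 cells, against 1756, 1636 and 1942 in parental cells (-0.79, adjusted p = 0.0051). Nek7, a kinase of centrosomes and the inflammasome, had 2985, 2869 and 3037 in HML2 and 5271 to 6070.1 in parental cells (-0.95, adjusted p = 6.4e-04). The groups were well apart for both genes, although a second probe set of Wee1 gave -0.09 (adjusted p = 0.82). Other motors and spindle factors had 1 higher and 1 lower gene of 25, and 1 and 2 with the block. Stmn1, which encodes the microtubule-destabilising protein stathmin, had 3326, 3733 and 3534 in HML2 and 7391, 7462 and 7859 in parental cells (-1.09, adjusted p = 2.3e-04). Rcc1, the exchange factor of the GTPase RAN on chromosomes, had 1659, 1937 and 1843 in HML2 and 847, 1034 and 999 in parental cells (0.89, adjusted p = 0.0023). These calls of Wee1, Nek7, Stmn1 and Rcc1 held without any single array, and their differences exceeded in size those of all 37 members.

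DNA replication genes, whose products act in S phase, had 2 higher and 9 lower members of 45 beside 12.3% higher and 14.9% lower among all genes tested, with a median of -0.11. With the block 4 were higher and 13 lower, beside 17.8% and 19.6% of all genes tested. Cdc45, part of the replicative helicase (-0.77), Dtl, which targets licensing factors for degradation (-0.75), and Chaf1b, of the histone chaperone CAF-1 (-0.65), were lower, and Gins3, another helicase component (0.60), was higher. The call of Cdc45 was lost without parental replicate 3, that of Dtl without parental replicate 2 or 3, that of Chaf1b without those or HML2 replicate 3, and that of Gins3 without any array but HML2 replicate 1. A second probe set gave -0.28 for Dtl (adjusted p = 0.48) and 0.48 for Gins3 (adjusted p = 0.052), neither called. No test of the difference between this list and the mitosis genes was made.

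The members lie on 15 chromosomes of the RefSeq gene table (GRCm38.p6). Ect2 and Cenpe, the members with the largest increases, and Ccna2 (0.12) lie on chromosome 3, where 24.4% of 450 genes tested were called higher and 8.67% lower, with a median of 0.20. Nuf2 and Cenpf lie on chromosome 1, where 34.7% of 521 genes were called lower and 4.03% higher, with a median of -0.32; Nek7 and Dtl lie there too. On chromosome 2, with 6 members the most represented, Bub1 was called and the median of all 782 genes was 0.01. Mad2l1 lies on chromosome 6, where 20.3% of genes were called higher. The part of chromosome-wide shifts in the values of these members was not tested.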

How the data were processed

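RNA of 6 cultures was hybridised to Affymetrix Mouse Genome 430 2.0 arrays. The deposited values are MAS5 signal intensities per probe set, per the submitters' processing notes. The MAS5 version and settings were not given in the sources used here. Their mean after trimming 2% at each end was 500 on all arrays, so differences in total messenger RNA are removed. The array annotation, dated 2016, gave 1 symbol for 34945 of 45101 probe sets, several for 932 and none listed for 9160 (64 are controls), and 34741 of those with 1 symbol were found in a RefSeq table of GRCm38.p6 used for names and chromosomes. Members had 81 such probe sets, of which 68 passed the filter, and 22 members had several; of the 31 other probe sets, 22 had the sign of the representative and 9 the opposite sign. Representatives of 9 members have identifiers of the _s_at or _x_at type, whose probes can match other transcripts.

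Values were converted to log2(signal + 50), which understates changes of dim genes, filtered at a mean signal of at least 100, reduced to the brightest probe set of a gene, and compared with limma 3.58.1 (lmFit, eBayes with intensity trend) in R 4.3.3, with Benjamini-Hochberg adjustment over 9361 genes and calls at 0.05. The procedure was tested on simulated data with independent noise on each array. The simulation held no shifts shared by arrays of the same number, so it does not cover calls under such shifts. Deviations of same-numbered HML2 and parental arrays from their group means correlated across genes at 0.45, 0.34 and 0.24, all above the bound of 0.1 set for pairing. HML2 replicate 3 correlated with parental replicate 2 at 0.24 as well. The model without the block was nevertheless the main one, with the block as an alternative, and calls of members are given for both. The labels do not name the source of the pairing. The members and related lists were chosen with earlier results of these data known. All members are accounted for; of each related list up to 4 called genes with the largest differences were named, filled up to 2 by the brightest, and Spc24, Spc25 and E2f8 were added after their values were seen. Promoter sequences are from RefSeq, GRCm38.p6. Alternatives changed the offset, filter, normalization, centring, block, array weights, variance trend, probe set and arrays used.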

Additional observations from a re-analysis of the deposited data

How the results depend on the processing

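The members called higher numbered 5, and 4 or 5 under offsets of 16 and 150, no filter or a filter of 200, quantile normalization, median centring, no variance trend and the mean of all probe sets. Bub1 was the member lost without a filter, without the trend, with quantile normalization and with the mean of all probe sets. With the replicate block there were 10 higher and 2 lower members, with array weights 17 and 3, with the second brightest probe set 3 higher, and without replicate 1 of both groups 13 and 2. Leaving out single arrays gave 2 to 15 higher and 0 to 2 lower members, with 0 lower without parental replicate 3. The causes of these changes were not tested. Fits that leave out single arrays hold fewer arrays. The median over the members was -0.04 (without HML2 replicate 2) to 0.36 (without HML2 replicate 1) in those fits. On all arrays it was 0.12, but 0.06 with quantile normalization, 0.18 with median centring and 0.27 with array weights, and it was 0.26 without replicate 1 of both groups. All genes called numbered 1155 higher and 1395 lower, 2422 and 2631 with array weights, 1670 and 1831 with the block, and 590 to 1577 higher and 795 to 1845 lower without single arrays. Related genes called numbered 16 higher and 19 lower, 29 and 34 with the block, 57 and 41 with array weights, 33 and 32 without replicate 1 of both groups, and 7 to 34 higher and 5 to 24 lower without single arrays. With the second brightest probe set the sign turned for Bub1 (-0.49), Kif2c (-0.16), Tpx2 (-0.32), Nusap1 (0.12), Dlgap5 (-0.42), Top2a (-0.65), Anln (-0.78), Ube2s (-0.13), Rab11fip3 (0.27), Pdcd6ip (-0.65), Racgap1 (-0.42) and Mybl2 (-0.47), and with the mean of all probe sets for Dlgap5 (-0.13), Top2a (-0.31), Anln (-0.34), Ube2s (-0.050) and Pdcd6ip (-0.16). Quantile normalization turned Cdk1 (-0.054), Pttg1 (-0.0054), Top2a (-0.031) and Ube2s (-0.036), median centring Bub1b (0.032) and Prc1 (0.028), array weights Bub1b (0.20), Ndc80 (0.047), Kif20a (0.013) and Top2a (-0.0079), and leaving out replicate 1 of both groups Bub1b (0.12), Ndc80 (0.044), Kif20a (0.014) and Top2a (-0.000488). Leaving out single arrays gave differences on either side of 0 for Ccna2 (-0.042 to 0.39), Cdk1 (-0.13 to 0.16), Foxm1 (-0.12 to 0.42), Birc5 (-0.0019 to 0.42), Bub1b (-0.15 to 0.20), Ttk (-0.36 to 0.046), Ube2c (-0.037 to 0.32), Ndc80 (-0.28 to 0.14), Kif20a (-0.53 to 0.14), Kif2c (-0.19 to 0.35), Prc1 (-0.18 to 0.091), Dlgap5 (-0.080 to 0.47), Top2a (-0.057 to 0.094), Mki67 (-0.21 to 0.025) and Ube2s (-0.038 to 0.16). In all, 56 of 1170 differences of single genes under an alternative turned sign, 50 of them in genes called in neither fit, while 974 kept their direction and side of the threshold, 100 lost the call and 40 gained it. No related gene named here lost its call with the block. The dimmest member, Foxm1, had a mean signal of 234, above the highest tryptophan control signal of 36.2.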

Other observations

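Among regulators of late cell-cycle transcription, 4 of 21 genes tested were higher in HML2 cells and 1 was lower, with a median log2 difference of -0.05. With the replicate block 6 were higher and 5 lower. The shares of all genes tested were 12.3% higher and 14.9% lower, and 17.8% and 19.6% with the block. Mybl2, which encodes the B-MYB protein that joins MuvB to activate mitosis genes, had signals of 688, 1154 and 1034 in HML2 cells, against 395, 581 and 481 in parental cells (0.90, adjusted p = 0.017). Nfyb, a subunit of NF-Y, had 2650.4, 2391 and 2068 in HML2 and 1333, 1643 and 1452 in parental cells (0.66, adjusted p = 0.0098). In neither gene did the groups overlap. A second probe set of Nfyb gave 0.33 without a call (adjusted p = 0.10), and that of Mybl2 gave -0.47 (adjusted p = 0.39). The call of Mybl2 was lost without HML2 replicate 2 or 3 or parental replicate 1 or 3. E2f8, an E2F repressor named to complete the count, had a difference of 0.54 (adjusted p = 0.012), and Cdkn1a, whose HML2 signal was highest on replicate 1, had 1.34 (adjusted p = 0.037). Without HML2 replicate 1 Cdkn1a differed by 0.81, still called, and no call of it remained after any parental array was removed. Tfdp2, a dimerisation partner of E2F proteins, had 235, 258 and 328 in HML2 and 1038, 882 and 1015 in parental cells (-1.68, adjusted p = 2.7e-04).

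Of 11 centrosome duplication genes tested, 1 was lower and 0 were higher by limma, and also 0 were higher at an unadjusted p below 0.05. By limma 14.9% of all genes tested were called lower and 12.3% higher. Cetn2, which encodes centrin 2, had signals of 2460.2, 2632 and 3116 in HML2 cells, against 6221, 4925 and 4797 in parental cells (-0.94, adjusted p = 0.0024), while its relative Cetn3 had 3226 to 3674 in HML2 and 3249 to 3294 in parental cells (0.06, adjusted p = 0.73). Also named by rule among the called cytokinesis genes were Pdcd6ip (0.50, adjusted p = 0.028), whose dimmer probe set was called lower, and Rab11fip3 (-0.83, adjusted p = 0.012). Signals of Rab11fip3 were 109 to 173 in HML2 and 249.9 to 306 in parental cells. The call of Pdcd6ip was lost without HML2 replicate 3 or any parental array, and that of Rab11fip3 without parental replicate 3.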
